A study of Mus musculus with 2 samples.

Results

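The genes described here are the protein-coding antioxidant and glutathione genes of the mouse heart, with Nnt among them. They were chosen by name: symbols that start with Sod, Gpx, Prdx or Mgst and a digit, symbols that start with Txn, Gst or Glrx, and the single genes Cat, Gsr, Gclc, Gclm, Mt1, Mt2, Nqo1, Hmox1 and Nnt. The annotation holds 75 such genes, and 65 of them had reads, among 15011 annotated genes with reads in the study. The rule itself uses names and gene type, not measured values. The study sequenced RNA from heart tissue of female B6CASTF1/J mice, an F1 cross of C57BL/6J and CAST/EiJ, aged 18 to 20 months, as cDNA by long-read RNA-seq, with single reads spanning many exons. It has 1 group of 2 libraries, each made from 2 µg of total RNA with spike-in RNA added, so there is no treated or control group. The labels number the libraries as biological replicates 1 and 2 and give them separate samples under the same donor entry. Nothing says whether they came from separate animals, so the spread between them may be technical.

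Aerobic cells make superoxide and hydrogen peroxide, mostly in mitochondria, of which heart muscle holds a great many. Superoxide dismutases turn superoxide into peroxide, and catalase, glutathione peroxidases and peroxiredoxins remove the peroxide. Glutathione and thioredoxin supply the electrons and are recharged by reductases that consume NADPH, and in mitochondria part of that NADPH is made by nicotinamide nucleotide transhydrogenase, the product of Nnt. Glutathione transferases attach glutathione to reactive compounds, and metallothioneins bind metal ions.

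Library 1 held 630211 mouse reads and library 2 held 664319. Levels are given as reads per 1000000 mouse reads after scaling between libraries (CPM), in which 1 read is worth 1.61 CPM in library 1 and 1.48 CPM in library 2. A long read is counted once whatever its length, so CPM was not divided by length. Reads carry no molecular identifiers in these files, so repeated reads of 1 molecule cannot be told apart. Whether long or short transcripts were counted less completely was not tested. The libraries differed in marker genes of other cells. Red cell markers summed to 30391 CPM in library 1 and 11784 in library 2, atrial muscle markers to 1806 and 4318, fat cell markers to 94.9 and 1011, and airway epithelium markers to 1.61 and 797. All 10 heart muscle markers were present, at 60875 and 55799 CPM in all. In RNA from whole tissue, fewer cells of a type and less RNA per cell cannot be told apart.

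Together the 65 genes took 6950 reads in library 1 and 7380 in library 2, or 11184 and 10954 CPM (mean 11069 ± 162, SD, n = 2). Peroxiredoxins took the largest share of this sum, at 30.5% of the mean, followed by glutathione transferases at 21.9%, catalase with the glutathione peroxidases at 17.5%, and the thioredoxin genes at 10.3%. The 5 most abundant genes, Prdx2, Prdx1, Gpx4, Mgst3 and Sod2, made up 45.1% of the summed level, and the top 20 made up 84.8%. Reads were listed for 59 genes in both libraries. Gsta1 (6 reads), Gsta2 (2) and Txnl4b (2) were listed in library 1 alone, and Gstm3 (1), Gsto2 (4) and Mgst2 (1) in library 2 alone. For Gpx2, Gpx5, Gpx6, Gstcd, Gstp3, Gstt4, Hmox1, Prdx6b, Txndc2 and Txndc8 no read was listed, which allows a level of up to 4.83 CPM in library 1 and 4.45 CPM in library 2 at a floor of 3 reads. Hmox1, the stress-inducible heme oxygenase, was thus not detectable at this depth.

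**Figure D1:**
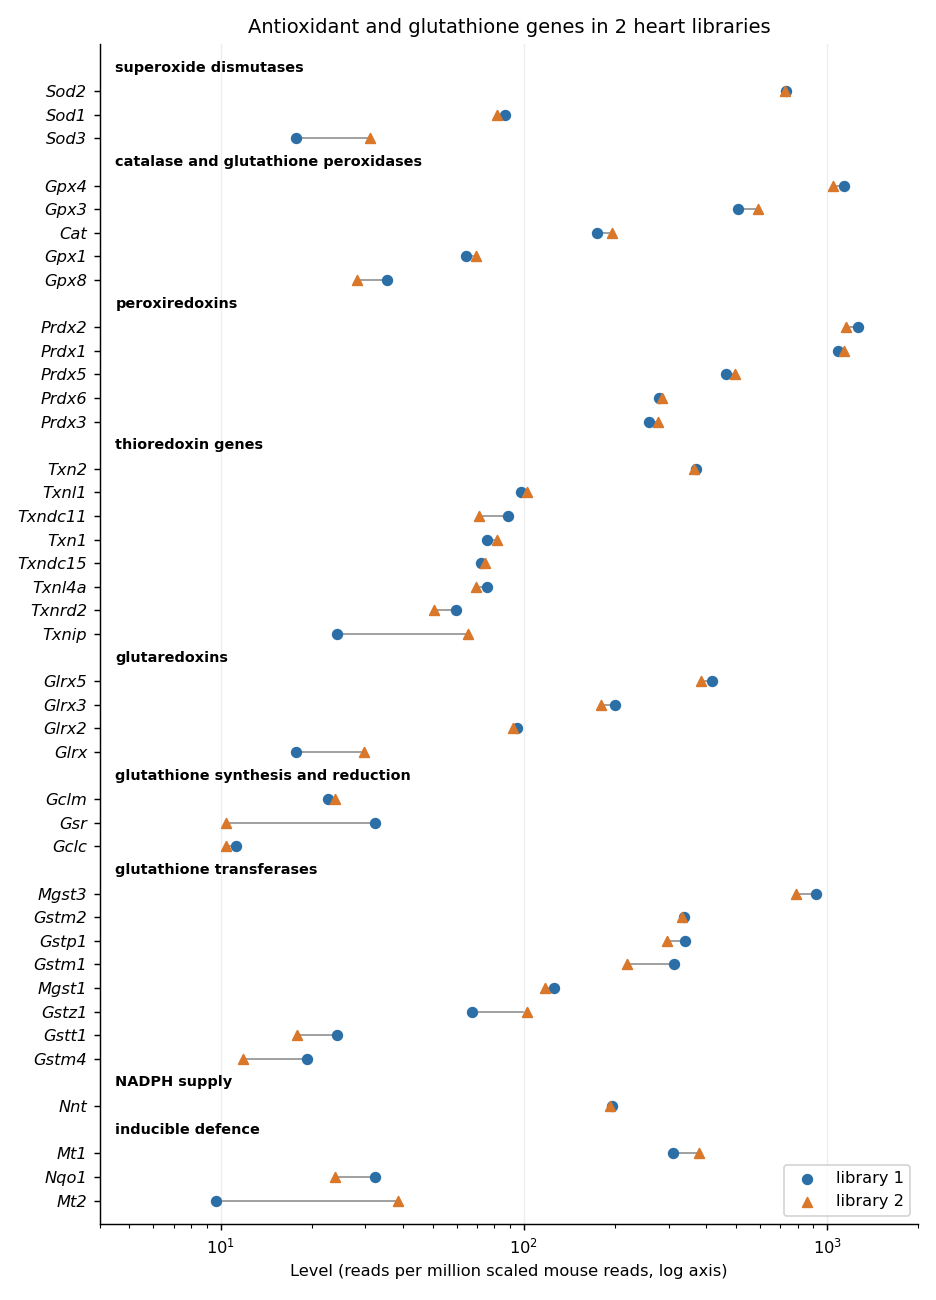
Level of each named gene in library 1 (circles) and library 2 (triangles), in CPM on a log axis, grouped by role. Most pairs lie close together, and the widest gaps are those of Txnip, Mt2 and Gsr.

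The mitochondrial manganese enzyme Sod2 was the main superoxide dismutase by reads. Sod2 had 453 reads in library 1 and 489 in library 2, 729 and 726 CPM. Cytosolic Sod1 had 54 and 55 reads (86.9 and 81.6 CPM), and extracellular Sod3 had 11 and 21 (17.7 and 31.2 CPM). Many Sod1 reads were fragments: 26 of 54 and 40 of 55 fell in the class of incomplete splice match. Such a model matches part of an annotated transcript, either a run of its introns or a single exon, but lacks an end. Only 16 and 10 reads held the complete 5-exon transcript Sod1-201, and a single-exon model of 180 bases over the last exon held 9 and 20. A pseudogene, Gm8566, aligned to Sod1 at 98.0% identity over 298 bases and was given 24 and 27 reads by the authors' counting. The level of Sod1 is therefore uncertain.

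Among catalase and the glutathione peroxidases, Gpx4 had the most reads. Gpx4, which reduces lipid peroxides in membranes, had 705 and 702 reads (1134 and 1042 CPM), nearly all on 1 transcript of 7 exons (673 and 671). Gpx3, the secreted plasma glutathione peroxidase, had 315 and 400 reads (507 and 594 CPM). Catalase (Cat) stood at 174 and 196 CPM from 108 and 132 reads. Gpx1, the widespread cytosolic and mitochondrial enzyme, was lower, at 64.4 and 69.8 CPM, and Gpx8 of the endoplasmic reticulum was at 35.4 and 28.2 CPM. The order Gpx4, Gpx3, Cat, Gpx1, Gpx8 was the same in the 2 libraries, with no overlap between neighbours. The pseudogene Gpx4-ps2, 99.8% identical to Gpx4 over 494 bases, was given 54 and 52 reads.

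Gpx1, Gpx3 and Gpx4, and the thioredoxin reductases Txnrd1, Txnrd2 and Txnrd3, are selenoproteins: a TGA codon inside the reading frame is read as selenocysteine, the catalytic residue. In the peroxidases the codon lies in the first part of the frame, and in the reductases it is the last but 1. The sequences below, from the GENCODE M21 transcripts, show the TGA in capitals with the coding bases around it, since they mark the feature that sets these members apart from the others.
Gpx1: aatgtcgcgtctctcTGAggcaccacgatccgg
Gpx3: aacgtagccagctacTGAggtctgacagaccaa
Gpx4: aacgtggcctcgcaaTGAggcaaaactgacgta
Txnrd1: ctccagtctggctgcTGAggt
Txnrd2: actgtgactggttgcTGAggc
Txnrd3: actcagaaaggctgcTGAggc
The TGA was codon 47 of 201 in Gpx1, 73 of 226 in Gpx3, 73 of 197 in Gpx4, 498 of 499 in Txnrd1, 526 of 527 in Txnrd2 and 614 of 615 in Txnrd3. Models that covered the TGA took 99.4% and 99.1% of the Gpx4 reads and 97.9% and 96.9% of the Txnrd1 reads. For Gpx3 the shares were 80.0% and 84.3%, and for Txnrd2 81.1% and 79.4%. Most of the Gpx3 reads outside these models lay on a single-exon model of its last exon, which held 53 and 58 reads.

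Peroxiredoxins, which reduce peroxides with a cysteine and are mostly recharged by thioredoxin, were led by the cytosolic pair. Prdx2 had 788 and 779 reads (1268 and 1156 CPM) and Prdx1 had 673 and 766 (1083 and 1137 CPM). The means were 1212 ± 79.0 for Prdx2 and 1110 ± 38.2 for Prdx1, beside 1088 ± 65.4 for Gpx4 (SD, n = 2). With all reads counted, both Prdx2 values lay above those of Prdx1 and Gpx4, and the values of Prdx1 and Gpx4 overlapped. Reads that matched a complete annotated transcript numbered 435 and 417 for Prdx2, 660 and 746 for Prdx1, and 676 and 674 for Gpx4. By those reads Prdx2 lay below Prdx1 and Gpx4 in both libraries, so its lead depended on counting the other reads. Prdx5 stood at 463 and 497 CPM, the 1-cysteine enzyme Prdx6 at 280 and 286, and the mitochondrial Prdx3 at 259 and 278. Prdx4 of the secretory pathway had 17 and 14 reads. Prdx2 is also an abundant protein of red cells. Red cell markers stood at 30391 and 11784 CPM beside 1268 and 1156 for Prdx2, and their part in the Prdx2 level was not tested.

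Most Prdx2 reads fell into 2 models of similar size. The 6-exon transcript Prdx2-201 held 379 and 357 reads, and a single-exon model of 312 bases at chr8:84974000-84974311, inside the last exon, held 341 and 348. Single-exon models of the incomplete class, with genomic models not counted, thus made up 43.3% and 44.7% of Prdx2 reads, and 40.4% and 44.8% of Glrx5 reads. Among members with at least 20 reads, the next by this share of the incomplete class were Txnip (0 of 15 and 16 of 44 reads), Sod1 (9 of 54 and 20 of 55) and Gpx3 (53 of 315 and 58 of 400). Many deposited models share their ends with annotated transcripts, so where each read ended is not known from them.

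The mitochondrial Txn2 was the highest of the thioredoxin genes, at 229 and 245 reads (369 and 364 CPM). Thioredoxin-like Txnl1 had 98.2 and 102 CPM. The cytosolic thioredoxin Txn1 had 75.6 and 81.6 CPM, Txndc15 had 72.4 and 74.2, and the spliceosome protein gene Txnl4a had 75.6 and 69.8. Txndc11 stood at 88.5 and 71.2 CPM, but 48 of its 55 reads and 41 of its 48 lay on 1 single-exon model of 75 bases at the 3′ end. These were of the genomic class, in which the read matches no chain of introns, and complete Txndc11-201 had 4 and 4 reads. Txndc11 overlaps Snn on the opposite strand by 75 bases, and Snn had 3 and 11 reads. The gene of origin of the reads on the 75-base model is therefore uncertain. Of the cytosolic thioredoxin reductase Txnrd1 there were 47 and 32 reads, led by Txnrd1-208 with 35 and 21. The mitochondrial reductase Txnrd2 had 37 and 34. Txnip, which binds and inhibits thioredoxin, had 15 reads in library 1 and 44 in library 2 and is described with the differences between libraries.

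None of the 36 Txnrd2 reads that spliced out of exon 8 was placed on an annotated junction there. The annotation places a small exon next, 20 bases at chr16:18453721-18453740 in Txnrd2-203 or 7 bases at chr16:18451971-18451977 in Txnrd2-212. All 21 reads of library 1 and 13 of 15 of library 2 that spliced out of exon 8 had an exon 8 that was 12 bases longer and was joined to position 18454476, with neither small exon. The other 2 reads used the annotated end of exon 8 and the same acceptor. A new model with 17 exons was the leading Txnrd2 model, at 19 and 12 reads. The annotated sequences are shown with the small exon in capitals, because they are the bases at issue.
Txnrd2-203: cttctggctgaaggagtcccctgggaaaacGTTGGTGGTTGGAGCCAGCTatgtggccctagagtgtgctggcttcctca
Txnrd2-212: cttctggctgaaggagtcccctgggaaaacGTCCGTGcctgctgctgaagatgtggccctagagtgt
Deposited models hold positions and no bases, so whether the RNA held these 20 or 7 bases was not tested. New splice sites and combinations took 56.8% and 47.1% of Txnrd2 reads, and 172 of 5109 protein-coding genes with at least 20 reads had a larger share over both libraries.

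Glutaredoxins, small glutathione-dependent oxidoreductases, were led by Glrx5, the mitochondrial member that carries iron-sulfur clusters, with 260 and 259 reads (418 and 384 CPM). Glrx3, another iron-sulfur carrier, had 124 and 121 reads. Glrx2 had 59 and 62, and Glrx, the classical cytosolic enzyme, had 11 and 20. Glrx5 reads were split between the 2-exon transcript Glrx5-201 (152 and 142) and a single-exon model of 465 bases in its last exon (105 and 116).

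The genes that make and recharge glutathione were low. Gclm, the modifier subunit of the rate-limiting ligase, had 14 and 16 reads, and the catalytic subunit Gclc had 7 and 7. Gsr, glutathione reductase, had 20 reads in library 1 and 7 in library 2. The 3 genes summed to 66.0 and 44.5 CPM, the lowest of the role groups.

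Glutathione transferases were led by Mgst3, a membrane-bound family member, with 569 and 533 reads (916 and 791 CPM). Gstm2 had 338 and 331 CPM, Gstp1 340 and 295, and Gstm1 312 and 218. Mgst1 of the endoplasmic reticulum and mitochondrial outer membrane had 126 and 117 CPM. Gstz1, which acts in tyrosine breakdown, had 42 and 69 reads, of which 18 of 42 and 35 of 69 were genomic, mostly on 1 model of 400 bases at the 3′ end. Gstm4 had 12 and 8 reads and Gstt1 had 15 and 12. Gstp1 and Gstp2 were identical over 423 aligned bases, and Gstm1 and Gstm3 91.3% identical over 598, and Gsta1 and Gsta2 99.3% over 297, so how the authors' counting split reads within these pairs is uncertain.

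Of the inducible defence genes, the metallothionein Mt1 had 193 and 254 reads (311 and 377 CPM). Its neighbour Mt2 had 6 and 26 reads (9.66 and 38.6 CPM), below Mt1 in both libraries. Nqo1, a quinone reductase, had 20 and 16 reads, and 5 and 4 of them were genomic. Mt1 and Mt2 lie side by side on chromosome 8 and are textbook targets of the metal-sensing factor MTF1, which binds metal response elements. The 150 bases before each gene's RefSeq start (GRCm38.p6, plus strand) are shown as the stretch in which these elements were searched. Capitals mark the metal response element core TGCNCNC on either strand.
Mt1, chr8:94178939-94179088: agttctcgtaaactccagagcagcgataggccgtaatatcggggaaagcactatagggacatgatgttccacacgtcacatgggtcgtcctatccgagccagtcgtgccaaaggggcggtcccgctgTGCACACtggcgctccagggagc
Mt2, chr8:94172468-94172617: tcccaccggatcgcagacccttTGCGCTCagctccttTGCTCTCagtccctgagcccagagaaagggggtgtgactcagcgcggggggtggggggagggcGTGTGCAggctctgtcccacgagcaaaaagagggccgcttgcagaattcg
The core occurred 1 time in the Mt1 window and 3 times in the Mt2 window. Of 32851 RefSeq promoter windows of the same length, 31.4% held at least 1 and 1.66% at least 3. The antioxidant response element core TGANNNNGC, searched on both strands, occurred 0 times for Mt1 and 1 time for Mt2, where it overlapped no metal response core, and 23.0% of windows held it. The annotation of the files starts Mt2 at 94172664 and Mt1 at 94179082, so the windows do not sit at the same distance from the transcripts counted here. The Mt2 window ends before its annotated start, and the Mt1 window runs past its own. Bases beyond the windows were not searched, so the counts of 1 and 3 do not compare the whole promoters of the 2 genes. A match of letters is not a binding site.

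Nnt, at chr13:119335448-119408997 on the minus strand (mm10), had 121 reads in library 1 and 130 in library 2, 195 and 193 CPM (mean 194 ± 1.24, SD, n = 2). Its product uses the proton gradient of the inner mitochondrial membrane to make NADPH. C57BL/6J, a parent of these mice and the source of the mm10 genome, carries a deletion of several Nnt exons. The models are positions on mm10, so exons absent from that genome cannot appear in them, and the allele of each read was not tested. The annotation divides the locus between 2 gene IDs: ENSMUSG00000025453.18 was given 65 and 76 reads and ENSMUSG00000116207.1 56 and 54. The 2 IDs were added together here.

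The reads formed 46 Nnt models, of which 13 were seen in both libraries, 20 had at least 2 reads and 26 had 1. Nnt-202, with 17 exons, 16 introns and 3464 bases, was the leading model, with 60 reads in library 1 and 68 in library 2. Its chain of introns held 49.6% of Nnt reads in library 1 (exact Clopper-Pearson 95% interval 40.4 to 58.8%) and 52.3% in library 2 (43.4 to 61.1%). Shortened parts of the same chain took 15.7% and 13.1%, and single-exon genomic models 2.48% and 3.08%. Models with at least 1 other junction took 32.2% (24.0 to 41.3%) and 31.5% (23.7 to 40.3%). Intervals cover counting error only, since the reads carry no molecular identifiers in these files.

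New combinations and new splice sites together took 28.9% and 27.7% of Nnt reads. Over both libraries this was 28.3%, against a median of 3.70% over 5109 protein-coding genes with at least 20 reads, and 446 of those genes had a larger share.

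**Figure D2:**
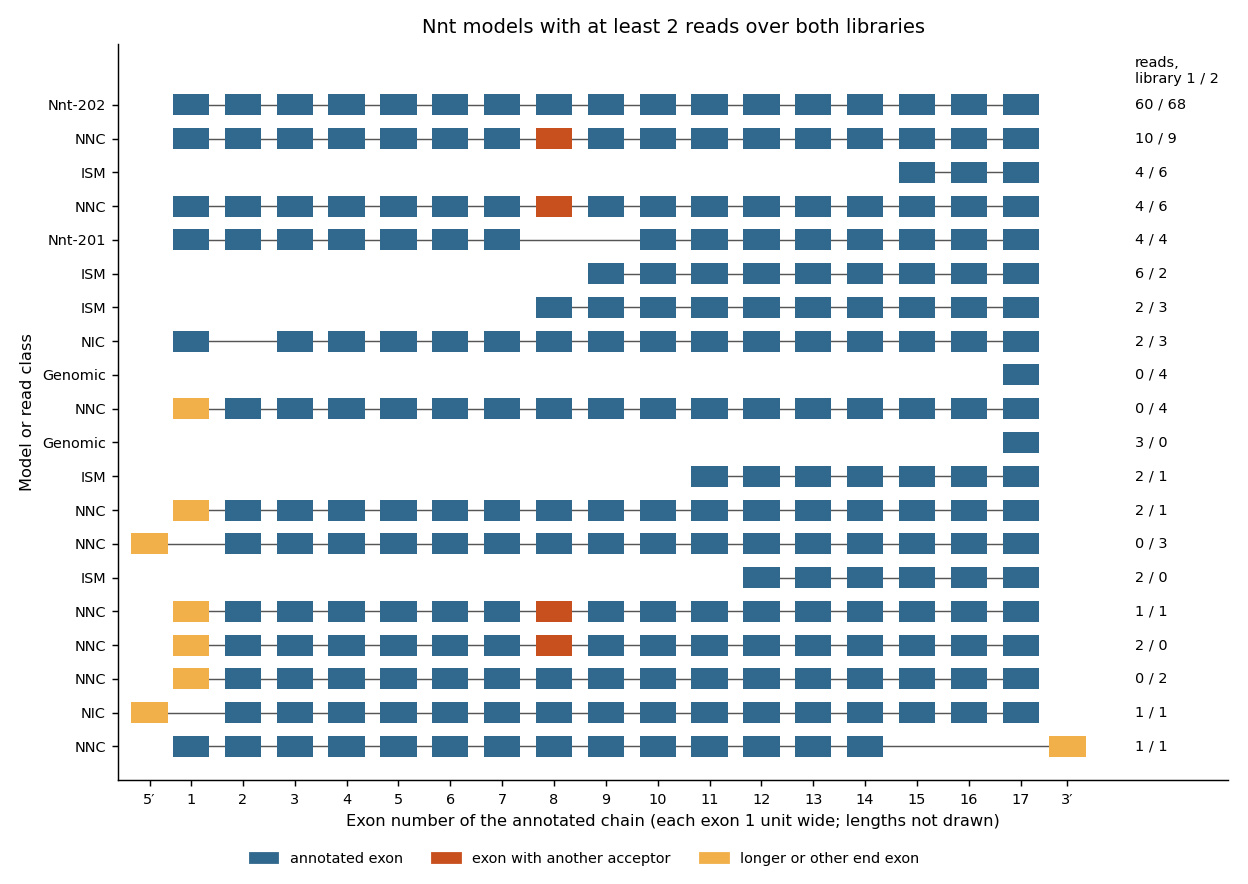
Exon content of the 20 Nnt models with at least 2 reads, 1 row per model in order of reads, with the reads of library 1 and library 2 at the right. Columns are the 17 annotated exons drawn at equal width, with other first and last exons at the 5′ and 3′ columns. Rows are named by transcript or by the read class in the first library that lists the model (NNC new splice site, NIC new combination of known sites, ISM incomplete splice match), and exon 8 is where most of the other acceptors lie.

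On the mm10 chain, most of the variation lay at the junction after exon 7. Whether the exons that mm10 lacks belong at this junction was not tested, so the acceptors below are placements on mm10. Of the reads that spliced out of exon 7, 74 of 100 in library 1 and 85 of 110 in library 2 went to the annotated start of exon 8. An acceptor 20 bases inside exon 8 took 13 and 10 reads, and an acceptor 34 bases inside took 6 and 7. A single read of library 2 used an acceptor 41 bases inside. Acceptors inside exon 8 together took 19 of 100 and 18 of 110 reads, shares whose exact intervals overlap. The jump from exon 7 to exon 10, annotated as Nnt-201, took 6 and 6 reads (4 and 4 on Nnt-201 itself), and the jump to exon 9 took 1 and 1.

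The junctions are shown with exon 7 first, 30 bases in lower case, followed by the next exon. Capitals mark the bases of exon 8 that the acceptor at 34 leaves out and the other 2 forms still hold in whole or in part. They are read from the annotated transcript Nnt-202, not from reads.
exon 7 to exon 8, annotated: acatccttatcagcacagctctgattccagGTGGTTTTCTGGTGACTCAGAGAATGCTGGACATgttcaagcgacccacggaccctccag
acceptor 20 bases inside: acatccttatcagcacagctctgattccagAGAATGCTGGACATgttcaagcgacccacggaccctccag
acceptor 34 bases inside: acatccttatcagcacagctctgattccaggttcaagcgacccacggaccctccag
exon 7 to exon 10: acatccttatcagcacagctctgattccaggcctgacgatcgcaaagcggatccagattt
The bases just before the acceptors are AG at 20, AT at 34 and AG at 41. AG is the usual end of an intron.

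Read from the annotated start codon, Nnt-202 has 835 codons before its stop. Leaving out 20 bases of exon 8 gave a stop after 336 codons, and leaving out 34 bases gave a stop after 343. Leaving out exon 8 alone, 146 bases, gave a stop after 453. Leaving out exons 8 and 9 together, 342 bases, kept the frame and the annotated stop, with 721 codons. These frames were read from Nnt-202 as it stands on mm10, so they do not include exons that mm10 lacks. Frames of RNA that holds such exons were not computed. Whether any of these RNAs was translated was not measured.

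**Figure D3:**
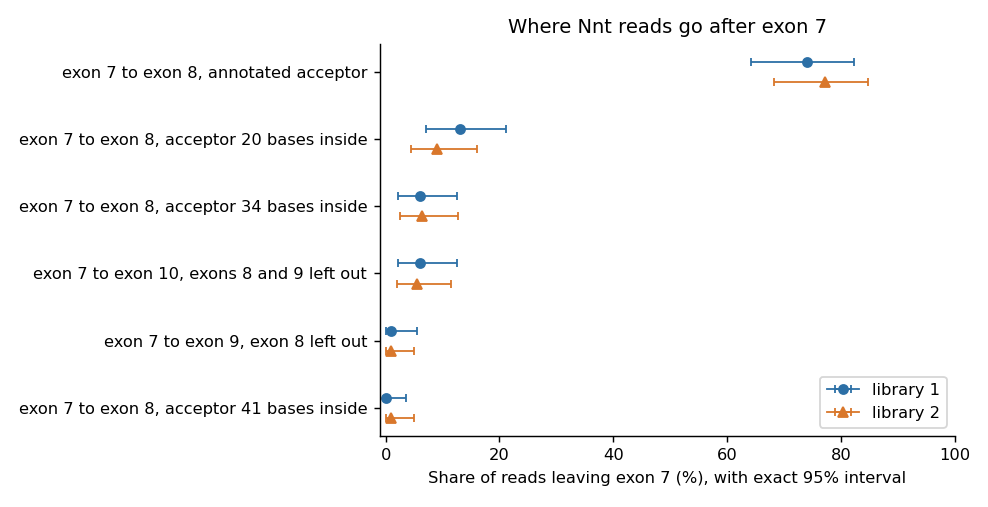
Share of Nnt reads that splice out of exon 7 going to each next exon start, in library 1 (circles, 100 reads) and library 2 (triangles, 110 reads), with exact 95% intervals. The annotated start of exon 8 takes 74.0% and 77.3%, and no other form takes more than 13 of 100 reads in library 1 or 10 of 110 in library 2.

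The 5′ end of Nnt varied too. Of reads with a first junction, 86 of 99 in library 1 and 95 of 110 in library 2 used the annotated end of exon 1, and 13 and 15 used other first exons. The most frequent of these overlapped exon 1 and ended 176 bases further into the intron, with 2 and 5 reads. Ends 276 and 299 bases further in took 2 and 1 reads and 1 and 3 reads. Exons upstream of the annotated start were each seen in 3 reads or fewer. An exon at chr13:119428587-119428922, whose nearer end lies 19590 bases upstream, was held by models with 2 and 1 reads. Exon 2, which holds the start codon, was left out after exon 1 in 4 and 3 reads, 1 of which also left out exons 3 and 4.

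At the 3′ end, models that reached the last annotated exon took 119 of 121 reads and 126 of 130. A model with 15 exons that left the chain after exon 14 and ended at another last exon had 1 and 1 reads. The shortened models kept the 3′ end except for 4 with 1 read each, and the genomic models lay in the last exon. The largest shortened models were exons 15 to 17 (4 and 6 reads) and exons 9 to 17 (6 and 2 reads). Of the reads in which both junctions could be seen, 64 of 99 and 69 of 107 were annotated at both, and 8 and 3 differed at both.

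The 2 libraries carry the same labels, so a comparison between them holds no treatment. Markers of red cells, atrial muscle, fat and airway differed between them, so it also takes in differences in the cells sampled. An exact two-sided binomial test compared each gene's reads with the scaled library sizes, over all 7544 genes with at least 10 reads in the 2 libraries together. At a Benjamini-Hochberg adjusted p of 0.05 it called 156 genes, or 2.07%. Of the members 56 were tested and 1 was called, a share near that background. The p-values measure counting error between these 2 libraries and say nothing of conditions. The median size of the log2 ratio was 0.22 over the members and 0.33 over all genes tested. At an unadjusted p of 0.05, 9 of the 56 tested members passed, 4 higher in library 1 and 5 in library 2. Of all genes tested 9.74% passed, a smaller share. The 2 shares were not tested against each other.

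**Figure D4:**
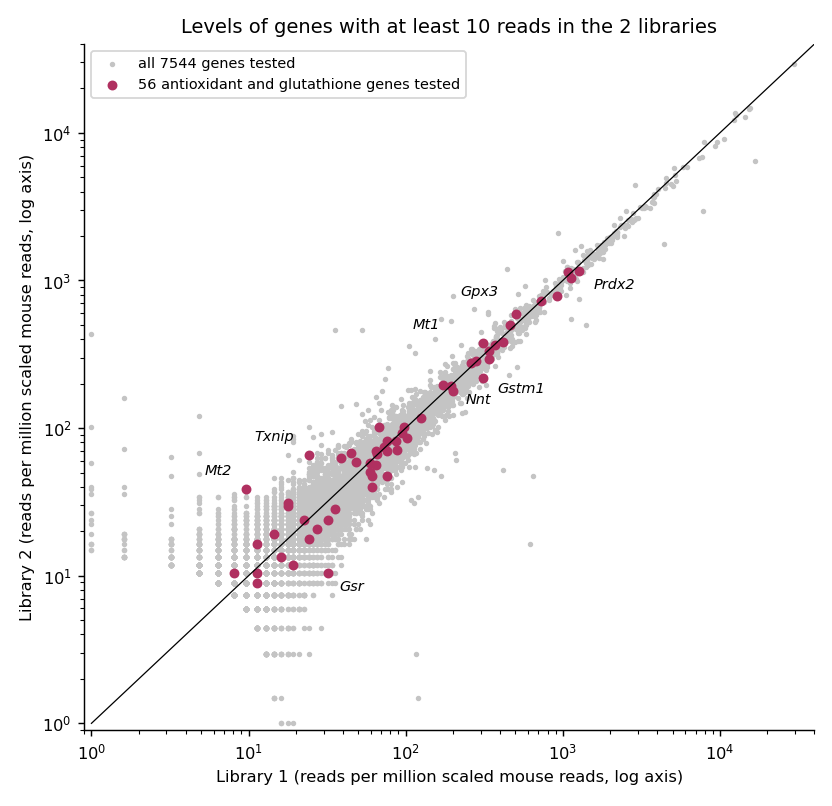
Level of each of 7544 genes with at least 10 reads in library 1 (x axis) and library 2 (y axis), both in CPM on log axes. Grey points are all genes, red points are the 56 tested members, the line marks equal levels, and levels of 0 are drawn at 1. Txnip and Mt2 lie above the line and Gsr below it.

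Txnip was the called member. Its 15 reads in library 1 and 44 in library 2 are 24.1 and 65.3 CPM, and it was 2.71-fold higher in library 2 (95% interval 1.48 to 5.23, exact binomial test, adjusted p 0.0321). Under other scalings and without genomic reads its adjusted p ran from 5.12e-04 to 0.0221. The call ended when only reads of known transcripts were counted (exact binomial adjusted p 0.385) and when genes with fewer than 10 reads were also tested. A single-exon model of 1379 bases over its 3′ part held 0 reads in library 1 and 16 in library 2, while complete Txnip-201 held 3 and 8 and another complete transcript 2 and 8. A list of glucocorticoid-responsive genes summed to 433 CPM in library 1 and 1248 in library 2, with Pdk4 (125 and 531 reads) and Tsc22d3 (46 and 144) called, and fat, atrial and airway markers were also higher in library 2. The part of these in the Txnip difference was not tested.

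Mt2 and Gstm1 came close to the threshold. Mt2, with 6 and 26 reads, was 4.00-fold higher in library 2 (exact binomial adjusted p 0.0506), and it passed under other library scalings (exact binomial adjusted p 0.0340 with total reads, against 0.192 with known transcripts only). Gstm1, with 194 and 147 reads, was 1.43-fold higher in library 1 (exact binomial adjusted p 0.0520), and passed when only genes with at least 50 reads were tested. Gsr, at 20 and 7 reads, did not pass (exact binomial adjusted p 0.181). Neither did Mt1, at 193 and 254 reads (exact binomial adjusted p 0.494). Nnt differed by a log2 ratio of 0.01, whose sign changed with the scaling.

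The use of transcripts within genes was compared with Fisher's exact test on the reads of each gene's leading transcript. Over 3925 genes tested, 73 (1.86%) were called at an adjusted p of 0.05. None of the 43 members tested was called, and 4 passed at an unadjusted p of 0.05: Gstm7, Sod1, Txndc5 and Txnip, named here after their values were seen. The share of all genes that passed at this unadjusted level was not computed, so the 4 cannot be set against a background. Leading Nnt-202 took 60 of 118 and 68 of 126 reads once genomic reads were left out (exact Fisher adjusted p 1).

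Most member reads matched a complete annotated transcript. Known transcripts took 83.1% of member reads in library 1 (82.2 to 84.0%) and 82.6% in library 2 (81.7 to 83.4%), against 69.5% and 68.2% over all protein-coding genes. Incomplete matches took 11.6% and 12.0% and genomic reads 2.92% and 3.02%, against 9.32% and 8.23% genomic over all protein-coding genes. Since 5 genes hold 45.1% of the members' level, these shares describe reads and not a typical member. The share on known transcripts ran from 8.74% for Txndc11 to 99.6% for Mt1 among the named genes over both libraries.

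**Figure D5:**
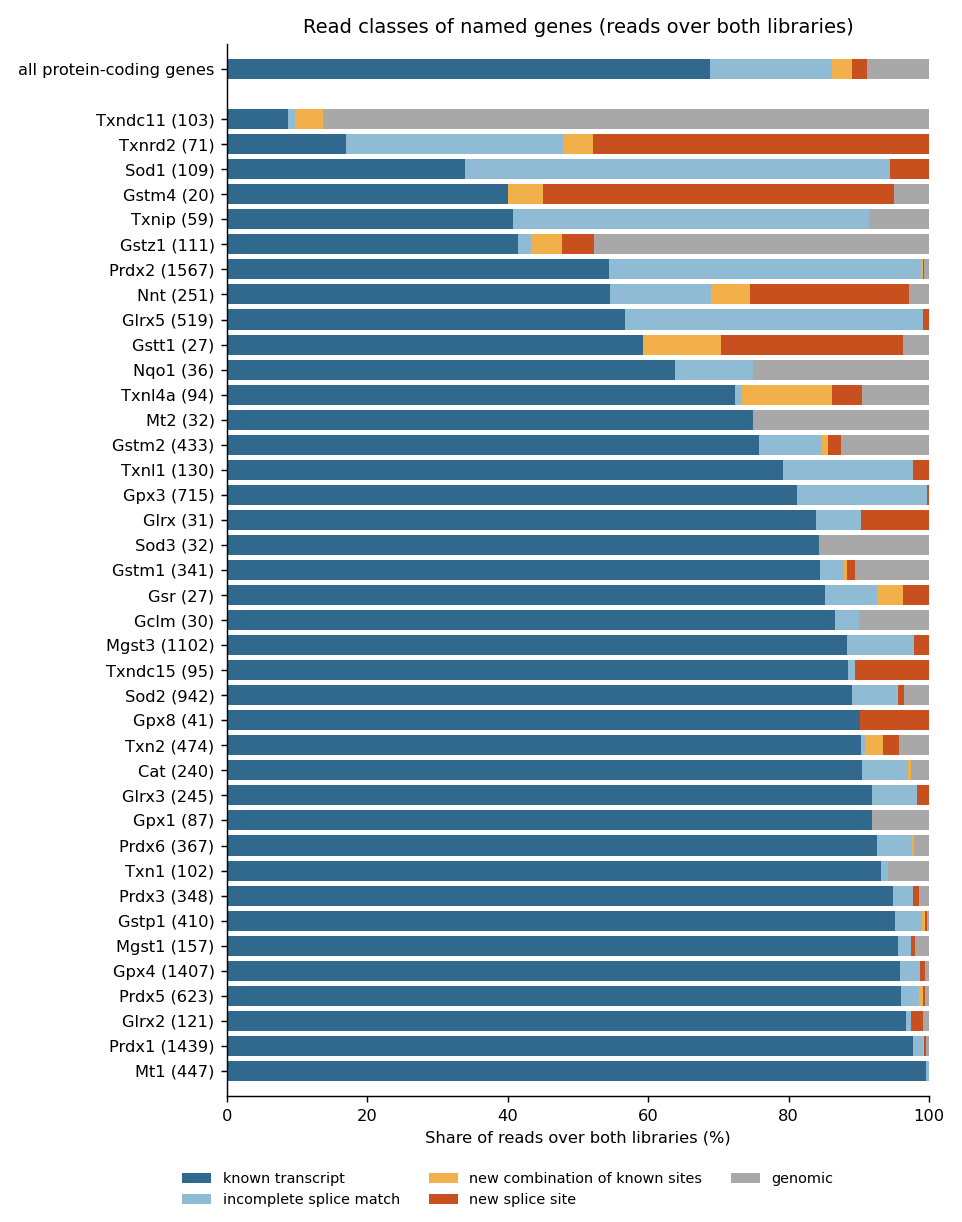
Share of reads in each read class for the named genes with at least 20 reads over both libraries, summed over the 2 libraries and sorted by the share on known transcripts, with all protein-coding genes at the top. The number of reads follows each name. Txndc11 is mostly genomic, Txnrd2 and Gstm4 have most reads on new sites and new combinations together, and Mt1, Prdx1 and Glrx2 almost wholly known.

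Reads on new splicing came from 168 models in 46 members, with 167 reads in library 1 and 179 in library 2. Of these models 117 had 1 read, and 37, in 22 members, were seen in both libraries. Among those 37, 18 differed from the closest annotated transcript by 1 end of 1 intron, and in 11 of the 18 the shift was 20 bases or less. The 18 include an Nnt model with another first exon upstream, counted as a shift of 19684 bases. The Gstm4 model with 7 and 3 reads ended an exon 15 bases early, just before a GC. The Mgst3 model with 8 and 4 reads ended an exon 9 bases early, just before a GT, the usual start of an intron. The Txndc15 model with 2 and 5 reads began an exon 6 bases late, just after an AG. Txnl4a had a model with an added exon of 69 bases, with 7 and 4 reads. The gene overlaps Gm16286 on the same strand, which had 39 and 45 reads, so the split between them is uncertain. Gstt1 had 5 and 5 reads on new splicing, its largest such model with 2 and 4.

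Other genes of the same pathways were followed as a fixed list of 71 genes, of which 67 had reads and 56 were tested. The most abundant were Fth1, ferritin heavy chain, at 4028 and 4152 CPM, mitochondrial isocitrate dehydrogenase Idh2, another source of mitochondrial NADPH, at 2176 and 2011, Park7 at 558 and 482, Ftl1 at 425 and 520, and Selenok at 331 and 260. Idh2 thus stood at 2093 ± 116 CPM against 194 ± 1.24 for Nnt (SD, n = 2). In the exact binomial test 0 of the 56 were higher in library 1 and 2 were higher in library 2, beside 0.862% and 1.21% of all genes (65 and 91 genes). That split of all genes moved with the setting, to 43 and 111 with DESeq2 factors, 51 and 106 with total reads and 84 and 77 at 50 reads or more. They were Sesn1, a stress-induced regulator, with 33 and 84 reads (2.35-fold, 95% interval 1.55 to 3.63, adjusted p 0.00136), and Tkt, transketolase, with 0 and 13 reads (adjusted p 0.0172). Nfe2l2, which encodes NRF2, the main activator of antioxidant genes, had 21 and 25 reads, and its inhibitor Keap1 had 20 and 27. Ggt7, Sesn2, Mt3 and the cystine transporter Slc7a11 had no listed reads.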

How the data were processed

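Each library's deposited table gives the count of long reads per transcript model, raw, with the chain of exons in a second deposited file. The deposited notes name genome build mm10 and GENCODE release M21, and the file of exons names TALON as the source of new models. No source used here names the aligner or its settings. Reads of spike-in RNA (12759 and 12890) were left out. Models were matched between libraries by transcript ID, chain of introns or, for single exons, 50% reciprocal overlap, and reads were summed per gene symbol. CPM used TMM factors of edgeR 4.0.16 (0.986 and 1.01) on genes with at least 10 reads. edgeR's quasi-likelihood test needs replicated groups and was not used. DESeq2 1.42.0 size factors were an alternative. The exact binomial and Fisher tests (scipy 1.17.1) ran over all genes with Benjamini-Hochberg adjustment and were checked on simulated reads. Log2 ratios used 0.5 added reads. Near copies were pseudogene transcripts aligned with blastn 2.17.0+ at 90% identity or more over at least 50% of the shorter sequence. Named genes were Nnt, every called member, the top 5 of each role group by level, and the top 5 by share of new splicing and of genomic reads among members with at least 20 reads. Txnrd1, Txnrd3, Prdx4, Gstm7 and Txndc5 lie outside that rule. The members and lists were chosen with earlier results of these data known.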

Additional observations from a re-analysis of the deposited data

How the results depend on the processing

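With 2 libraries, 9 members with fewer than 10 reads were not tested, and 18 of 65 had at least 100 reads in each library. Over 40 named members, 138 of 158 log2 ratios under other scalings or read sets kept their sign and side of the threshold. The sign turned for 7 members whose ratio was near 0: Gclc (-0.6374 with known transcripts, -0.0952 without genomic reads), Gclm (0.0082 without genomic reads), Glrx2 (-0.0146 with DESeq2 factors), Gstm2 (-0.0104 with total reads, -0.0301 with DESeq2 factors, -0.0937 with known transcripts, -0.0331 without genomic reads), Nnt (-0.0271 with total reads, -0.0467 with DESeq2 factors, -0.0889 with known transcripts), Sod2 (-0.0342 with total reads, -0.0538 with DESeq2 factors), Txn2 (-0.0212 with total reads, -0.0409 with DESeq2 factors, -0.0216 with known transcripts, -0.0029 without genomic reads). The cause was not tested. Txnip was at -1.41 (adjusted p 0.385) with known transcripts only, and Mt2 at -1.95 and -1.97 (adjusted p 0.0340 and 0.0331) with total reads and DESeq2 factors. The members called numbered 2 (Mt2, Txnip) with total reads or DESeq2 factors, 2 (Gstm1, Txnip) at 50 reads or more, 0 with known transcripts only and 0 with no filter. Calls over all genes moved with the scaling and the 50-read minimum too, as given above by direction. The member counts were not compared with the share over all genes in each setting. All genes called numbered 102 with known transcripts only, when fewer genes were tested. Genes with a called leading share numbered 150 with genomic reads kept and 0 with known transcripts only.

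Counting only known transcripts, scaled to the total of such reads, raised the sum over members to 13917 CPM, superoxide dismutases to 1059, catalase and glutathione peroxidases to 2666, peroxiredoxins to 4168, thioredoxin genes to 1342, glutaredoxins to 777, glutathione synthesis and reduction to 70.8, glutathione transferases to 3099 and inducible defence to 574, and lowered Nnt to 160. Leaving out genomic reads gave 11731 for the sum, and 881 for dismutases, 2094 for catalase and peroxidases, 3662 for peroxiredoxins, 773 for glutaredoxins and 206 for Nnt. Nnt stood at 109 CPM for the gene ID of the annotated chain alone, an alternative chosen after seeing the data. Its share on the annotated chain was 56.9% over models with at least 2 reads and 62.1% over reads that show both junctions, the latter also chosen after seeing the data. The share of member reads on known transcripts was 85.4% without genomic reads and 86.3% without Prdx2. Using 1 library in place of 2 gave 10954 to 11184 CPM for the sum, 193 to 195 for Nnt, 49.6 to 52.3% for the annotated Nnt chain and 82.6 to 83.1% for known transcripts. No paired analysis was possible because there is 1 group.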

Other observations

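Known transcripts of the members were almost all protein-coding: 5745 reads in library 1 and 6076 in library 2, against 28 and 13 on retained-intron transcripts, 1 and 2 on transcripts annotated for nonsense-mediated decay, and 2 and 3 on processed transcripts. A retained-intron transcript of Sod1, 3970 bases long, took 8 and 3 of the retained-intron reads. In Prdx5 the shorter Prdx5-203, with 5 exons, held 33 and 33 reads beside 245 and 287 on Prdx5-201.

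Pseudogenes that align to a member numbered 55 for 21 members, and 4 had reads: Gm8566 (Sod1), Gpx4-ps2 (Gpx4), Gstp-ps (Gstp1, 4 and 7 reads) and Gm2693 (Gsta2, 2 and 2 reads). Together they took 84 and 88 reads, 1.21% and 1.19% as many as the members. The 2 reads counted for Gsta2 itself, in library 1, were on new splicing.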
